A study of Homo sapiens with 8 samples.

Results

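The Hedgehog co-receptors BOC, CDON and GAS1, the receptor PTCH1, the ligand-binding antagonist HHIP, the signal transducer SMO, the inhibitor SUFU and the transcription factors GLI1, GLI2 and GLI3 were followed across a panel of human cells with lowered or raised AUF1. These 10 genes, of 36950 in the tables, were taken by symbol through GENCODE. The set was chosen by FPKM values, since BOC, CDON and GLI1 had been noted as lower in libraries with overexpression, so their differences in that contrast are descriptions. AUF1, the product of HNRNPD, binds AU-rich stretches of mRNA and is known for roles in mRNA decay and translation. HEK293, an established human embryonic kidney line, was transfected, and total RNA was sequenced.

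There were 8 libraries, 1 in each group. They came from cells given a control siRNA, cells given an AUF1 siRNA, cells given an empty vector, cells given Flag-AUF1 p37, p40, p42 or p45 (the splice isoforms of the protein), and cells overexpressing all 4 isoforms together. The knockdown is set against the control siRNA, and the 5 overexpression libraries are each set against the single empty vector library, which those comparisons therefore share. With 1 library in each group no difference can be set against a spread between replicates and there are no p-values. Fewer cells that express a gene and less RNA per cell cannot be told apart in such bulk samples.

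HNRNPD stood at 296.4 scaled FPKM in control siRNA cells, 167.2 after AUF1 siRNA (56.4% of control) and 312.4 in empty vector cells, and was 9.62- to 15.6-fold above the empty vector with overexpression. Coverage per 1 FPKM, a measure of relative depth, was 0.213 to 0.345. It was highest with p42, AUF1 siRNA (0.322) and p37 (0.319). Control siRNA (0.246) and p40 (0.262) lay between, and empty vector (0.214), p45 (0.215) and all isoforms were lowest. The part of depth in the differences below was not tested. Of 9 HEK293 marker genes found (10 listed), 6 had a median of 5 FPKM or more, with a summed level of 182.9 to 236.2. The level was 17.1 to 32.1 for 10 fibroblast markers, of which 7 had a median below 1, and 1.76 to 11.2 for 6 lymphocyte and macrophage markers, of which 5 did. It was 173.1 to 353.9 for 10 cervical carcinoma line markers, of which 5 had a median of 5 FPKM or more and 2 a median below 1. Of these, CDKN2A held 113.3 in the empty vector library, 243.2 in the control siRNA library and 233.6 in the p42 library. Among the HEK293 markers CDH2 held 108.2 to 138.4. Summed levels thus did not set the HEK293 list apart from the cervical carcinoma list. Past 2-fold in these lists were PAX2, a HEK293 marker, in the knockdown (3.91 to 17.2 FPKM, 1.89), CDKN2A with p42 (1.04), and CD44 in the knockdown (1.24), with p40 (-1.38) and with p45 (-2.39). Over all genes tested 10.0% were higher past 2-fold in the knockdown and 2.99% with p42, and 2.82% and 3.11% were lower with p40 and p45. The low library of each PAX2 and CD44 pair was under 5 FPKM. Against the other control library PAX2 was still called (1.23) and the CDKN2A and CD44 ratios were not past 2-fold. The part of these markers in the differences below was not tested.

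In the Hedgehog pathway, a secreted ligand binds PTCH1 at the cell surface together with BOC, CDON or GAS1, which present it. Ligand binding lifts the block that PTCH1 places on SMO, and SMO then signals through the primary cilium to release GLI2 and GLI3 from SUFU. GLI1, PTCH1 and HHIP are themselves transcribed when the pathway is active, which makes their mRNAs widely used readouts of it.

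The values are FPKM, fragment counts normalised to transcript length and to the mapped fragments of a library, as estimated per transcript by the authors. The value of a gene here is the sum over its transcripts of 300 nt or more, scaled between libraries. A sum of FPKM counts a short transcript as much as a long one, so each gene was also expressed as a length-weighted value, in which every transcript counts in proportion to its length, and as the sum over transcripts of 1000 nt or more. The length-weighted value was used to compare libraries and not genes. Ratios are log2(value + 1 FPKM), which understates differences of low genes, and a gene is called higher or lower when this ratio is 1 or more in size, that is 2-fold. A gene entered a comparison when the mean of its pair of libraries was 5 FPKM or more and both were above 0.

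On the summed scale GLI2 and GLI3 were the most abundant of the 10 genes, at 215.5 to 355.5 and 88.9 to 125.4 FPKM. BOC, CDON, PTCH1, SUFU, GLI1 and HHIP each reached 11.4 FPKM or more in some library, SMO stayed between 3.29 and 4.45, and GAS1 between 0.350 and 1.31. The order changed when only transcripts of 1000 nt or more were summed. There GLI3 was highest in 7 libraries at 11.5 to 13.7 FPKM, and SUFU stood level with it after AUF1 siRNA, at 11.9 against 11.8. SUFU (7.19 to 11.9), PTCH1 (5.63 to 9.10) and CDON (4.79 to 9.57) followed with ranges that overlap, and GLI2 stood at 1.41 to 2.31. Transcripts under 1000 nt held 99.1% to 99.4% of the GLI2 sum and 87.0% to 89.6% of the GLI3 sum, against 66.5% to 71.4% of the sum over all genes. They held none of the sum of GAS1, SMO or SUFU in any library.

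Several of the transcripts that carry these sums differ from the full-length mRNA at an end or at a splice junction, and the stretch around that difference is shown for each because the gene values turn on these molecules. The sequences are those of GENCODE release 29 and run 5′ to 3′. Capitals mark bases outside the stretches of 20 nt or more that the short transcript shares with the full-length mRNA.
BOC ENST00000498710, bases 559 to 588: gaaagtagaagaaGTGGatctccaggactt
CDON ENST00000534818, bases 29 to 58: CCTGCCAGAAGAGCCgtctctccaagggaa
GLI1 ENST00000530789, bases 225 to 254: cattggcaccatgagGTGCAGTCAGCCCCG
GLI2 ENST00000418323, bases 24 to 53: ACTTTTGTCTCTCTCggattgccacccagg
Most of each short transcript is shared with the long mRNA of the same gene. The shared part is 699 of 703 nt for BOC, 416 of 459 nt for CDON, 197 of 314 nt for GLI1 and 277 of 315 nt for GLI2. An FPKM value for these transcripts is thus an estimate of how fragments divide between overlapping forms. The sequenced fragments were size-selected at 250 to 300 bases, barely below the length of the GLI1 and GLI2 forms, and the part of that closeness in their FPKM was not tested. At the length limit of 300 nt, these 314 nt and 315 nt transcripts lay just inside. PTCH1 ENST00000488809 (297 nt) and GLI1 ENST00000544736 (187 nt) lay outside and were listed at 0 in every library.

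BOC, an immunoglobulin superfamily co-receptor (ENSG00000144857, hg19 chromosome 3, 112929850 to 113006303), was the member with the lowest ratios in the overexpression series. Its summed FPKM was 15.96 in control siRNA cells, 2.84 after AUF1 siRNA, 29.5 in empty vector cells, 17.2 in p37 cells, 19.4 in p40 cells, 1.64 in p42 cells, 1.88 in p45 cells and 20.3 in all-isoform cells. The AUF1 siRNA, p42 and p45 libraries thus stood apart as low, and p37, p40 and all isoforms lay between the controls. Against the empty vector the log2 ratio was -3.53 for p42 and -3.40 for p45, and in the knockdown it was -2.14.

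A single BOC transcript separated these libraries. ENST00000498710, a 703 nt form annotated as protein coding with an open 3′ end (hg19 chromosome 3, 112930381 to 112987273), held 14.3 FPKM in control siRNA cells (deposited bounds 9.42 to 19.2), 27.1 in empty vector cells (19.5 to 34.7), 15.8 in p37 cells, 19.4 in p40 cells and 18.5 in all-isoform cells. It was listed at 0 in the AUF1 siRNA, p42 and p45 libraries. BOC transcripts of 1000 nt or more stood at 1.57, 2.96, 2.27, 1.36, 0, 1.65, 1.91 and 1.78 FPKM in the order control siRNA, AUF1 siRNA, empty vector, p37, p40, p42, p45 and all isoforms. In these long forms the AUF1 siRNA library was the highest and the p40 library was listed at 0. The length-weighted BOC value was 13.9 in empty vector cells, 3.83 in p42 cells and 4.52 in p45 cells, which gives ratios of -1.63 and -1.43. Against control siRNA cells, at 8.40, these ratios were -0.96 and -0.77, short of 2-fold. In the knockdown it was 6.16 against 8.40 (-0.39), which is not past 2-fold, and it was -1.06 against the empty vector. The 3′ end of BOC overlaps CFAP44, a gene of the opposite strand, but the 703 nt form as annotated stops before that overlap.

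CDON, the closest relative of BOC among the members (ENSG00000064309, hg19 chromosome 11, 125825691 to 125933230), showed the clearest split between groups on the summed scale. It stood at 25.9 FPKM in control siRNA cells, 21.9 after AUF1 siRNA, 25.9 in empty vector cells, 9.73 in p37 cells, 5.85 in p40 cells, 5.57 in p42 cells, 5.46 in p45 cells and 7.38 in all-isoform cells. The 5 overexpression libraries lay below the 3 others without overlap. Log2 ratios against the empty vector were -1.33, -1.97, -2.04, -2.06 and -1.68 in that order, and the knockdown ratio was -0.23.

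The split followed ENST00000534818, a 459 nt protein-coding form with an open 3′ end (hg19 chromosome 11, 125891158 to 125933230). It held 19.3 FPKM in control siRNA cells (deposited bounds 11.2 to 27.5), 17.3 after AUF1 siRNA (10.9 to 23.7) and 20.2 in empty vector cells (12.1 to 28.2). It was listed at 0 in all 5 overexpression libraries, with the deposited status LOWDATA in p37, p40, p45 and all isoforms and OK in p42. CDON transcripts assembled from the reads split the opposite way. They were at 0 in the control siRNA, AUF1 siRNA and empty vector libraries and at 0.632 to 2.05 FPKM with overexpression. CDON transcripts of 1000 nt or more, with LOWDATA transcripts kept, did not show the split. They stood at 6.30, 4.79 and 5.62 FPKM in the control siRNA, AUF1 siRNA and empty vector libraries, and at 9.57, 5.93, 5.59, 5.55 and 7.32 FPKM across p37, p40, p42, p45 and all isoforms, where p37 was the highest. Length-weighted CDON was 16.7, 13.1 and 15.6 in the same 3 libraries and 16.2, 13.7, 12.5, 12.7 and 15.7 with overexpression, with ratios from -0.30 to 0.05.

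GAS1, a membrane-anchored co-receptor of a separate protein family (ENSG00000180447, hg19 chromosome 9, 89559279 to 89562104), has a single transcript and entered no comparison. It stood at 1.09, 1.22, 0.455, 1.25, 0.350, 1.17, 1.31 and 0.622 FPKM in the order control siRNA, AUF1 siRNA, empty vector, p37, p40, p42, p45 and all isoforms. The empty vector and p40 libraries were lowest, and its log2 ratios ran from -0.11 to 0.67.

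PTCH1, the Hedgehog receptor (ENSG00000185920, hg19 chromosome 9, 98205262 to 98279339), stood at 7.21, 8.74, 7.96, 7.80, 18.0, 7.86, 7.04 and 8.22 FPKM in that order. The p40 library alone was high, with a log2 ratio of 1.09 against the empty vector. There ENST00000544247, a 919 nt transcript absent from GENCODE 29 and placed with PTCH1 by its cluster in the tables, held 12.5 FPKM (deposited bounds 8.29 to 16.6), and it was at 0 in the remaining 7 libraries. PTCH1 transcripts of 1000 nt or more were lowest with p40, at 5.63 FPKM against 6.96 to 9.10 elsewhere. The length-weighted value stayed between 7.30 and 8.72 in all 8 libraries. Much of this rests on ENST00000375274, of 4344 nt, which had the status LOWDATA in all 8 libraries. That transcript held 17.8% of the PTCH1 sum with p40 and 53.3% to 71.8% elsewhere.

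HHIP, which binds and sequesters the ligand (ENSG00000164161, hg19 chromosome 4, 145567173 to 145666423), stood at 13.6 FPKM in control siRNA cells, 4.39 after AUF1 siRNA, 5.09 in empty vector cells, 5.38 in p37 cells, 5.78 in p40 cells, 1.98 in p42 cells, 0.485 in p45 cells and 7.004 in all-isoform cells. The control siRNA library was the highest, and the p45 library was the lowest. In the knockdown the log2 ratio was -1.44. It was -1.03 for p42 and -2.04 for p45, where the mean lay under 5 FPKM and HHIP was not tested. Different transcripts carried these sums. ENST00000503090, of 327 nt, held 7.81 FPKM in control siRNA cells (deposited bounds 0.706 to 14.9) and was listed at 0 elsewhere. ENST00000509630, of 563 nt, held 5.38 FPKM in control siRNA cells, 3.98 after AUF1 siRNA, 3.79 with p40 and 5.16 with all isoforms. Its status was LOWDATA with p40 and all isoforms. Transcripts assembled from the reads held 91.8% of the sum in both the empty vector and the p37 library. The full-length ENST00000296575, of 10072 nt, stood at 0.407 to 0.631 FPKM in all 8 libraries. Length-weighted HHIP ran from 2.46 in p45 cells to 5.51 in all-isoform cells, with no ratio past 2-fold. Without a statement on strand, reads of the antisense gene HHIP-AS1 cannot be told apart from those of HHIP, and ENST00000512359, its form that overlaps HHIP, was listed at 0 in all 8 libraries.

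SMO, the seven-pass transducer of the pathway (ENSG00000128602, hg19 chromosome 7, 128828713 to 128853386), varied little. It stood at 4.02, 3.84, 3.60, 3.47, 3.29, 4.45, 3.77 and 3.41 FPKM in the order control siRNA, AUF1 siRNA, empty vector, p37, p40, p42, p45 and all isoforms, below the level needed for a comparison. Transcripts assembled from the reads held all of it with p37, p40 and p45, and the annotated ENST00000249373 held all of it after AUF1 siRNA.

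SUFU, the cytoplasmic inhibitor of the GLI proteins (ENSG00000107882, hg19 chromosome 10, 104263744 to 104393292), stood at 7.46, 11.4, 8.86, 9.27, 9.24, 9.65, 9.40 and 8.53 FPKM in that order. The AUF1 siRNA library was the highest, with a log2 ratio of 0.56, and the length-weighted ratio was 0.09. Its make-up differed more than its level. ENST00000369899, of 1767 nt, held 80.8% of the SUFU sum after AUF1 siRNA and 46.2% in control siRNA cells, and ENST00000369902, of 5001 nt, held 19.2% and 53.8%. In the empty vector library these shares were 61.5% and 38.5%. Across the 5 overexpression libraries they ran from 63.6% to 73.1% and from 16.9% to 36.4%, so the control siRNA library stood furthest apart.

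GLI1, the activator that the pathway itself induces (ENSG00000111087, hg19 chromosome 12, 57853918 to 57866045), had the widest range of the GLI genes on the summed scale. It stood at 0.544 FPKM in control siRNA cells, 13.6 after AUF1 siRNA, 10.4 in empty vector cells, 7.35 in p37 cells, 0.851 in p40 cells, 12.2 in p42 cells, 1.02 in p45 cells and 1.79 in all-isoform cells. The AUF1 siRNA, p42, empty vector and p37 libraries were high and the other 4 were low, so the control libraries fell on opposite sides. Against the empty vector GLI1 was lower with p40 (-2.62), p45 (-2.49) and all isoforms (-2.03), and with p37 and p42 its ratios were -0.44 and 0.22. In the knockdown it was higher, at 3.24. The low libraries of these pairs were all under 2 FPKM, so GLI1 entered these comparisons through the high library alone, as BOC did with p42, p45 and AUF1 siRNA, and HHIP with AUF1 siRNA. On the length-weighted scale its ratios were 1.22 in the knockdown and -1.09 with p45, with means under the level filter.

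The GLI1 pattern was that of ENST00000530789, a 314 nt retained-intron form without an annotated coding region (hg19 chromosome 12, 57854296 to 57858726). Its last 75 bases lie in no full-length exon. It held 12.7 FPKM after AUF1 siRNA (deposited bounds 5.31 to 20.1), 9.26 in empty vector cells (0.708 to 17.8), 6.69 in p37 cells (1.33 to 12.1) and 11.3 in p42 cells (4.40 to 18.1), and was at 0 in the remaining 4 libraries. GLI1 transcripts of 1000 nt or more never passed 1.07 FPKM and stood at 0.525, 0.873, 1.07, 0.647, 0.862, 0.946, 0.403 and 0 FPKM in the order used above. Long GLI1 mRNA was thus at a low level in all 8 libraries. The 3′ end of GLI1 overlaps ARHGAP9, and the 314 nt form lies away from it.

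GLI2, the main activator of the pathway (ENSG00000074047, hg19 chromosome 2, 121493199 to 121750229), stood at 238.2 FPKM in control siRNA cells, 355.5 after AUF1 siRNA, 215.5 in empty vector cells, 230.4 in p37 cells, 237.2 in p40 cells, 269.3 in p42 cells, 279.8 in p45 cells and 243.3 in all-isoform cells. The AUF1 siRNA library was the highest, with a log2 ratio of 0.58, short of 2-fold. ENST00000418323, of 315 nt (hg19 chromosome 2, 121493823 to 121685034), held 81.6% to 87.4% of these sums, at 194.3 FPKM in control siRNA cells (deposited bounds 159.3 to 229.3) and 308.2 after AUF1 siRNA (270.2 to 346.1). These bounds do not overlap, but they cover estimation within a library only. In the other 6 libraries it held 188.4 to 240.7 FPKM. The coding part of this transcript, with its start codon in capitals, is the following stretch, which ends with the transcript and without a stop codon.
GLI2 ENST00000418323, bases 70 to 315: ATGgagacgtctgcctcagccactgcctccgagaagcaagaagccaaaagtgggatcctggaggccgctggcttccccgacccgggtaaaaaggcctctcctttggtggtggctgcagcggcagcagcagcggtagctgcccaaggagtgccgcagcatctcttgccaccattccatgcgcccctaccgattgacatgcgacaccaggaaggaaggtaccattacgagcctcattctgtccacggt
The 6799 nt ENST00000452319 and the 6768 nt ENST00000361492, which encode the zinc finger protein, stood at no more than 2.23 FPKM each.

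GLI3, the main repressor of the pathway (ENSG00000106571, hg19 chromosome 7, 42000548 to 42277469), stood at 103.3, 104.8, 125.4, 111.4, 103.8, 110.4, 88.9 and 119.3 FPKM in the order control siRNA, AUF1 siRNA, empty vector, p37, p40, p42, p45 and all isoforms. The p45 library was the lowest, with a log2 ratio of -0.49, and no ratio was past 2-fold. The 653 nt ENST00000448703 held 77.3 to 112.4 FPKM of this. The full-length ENST00000395925, of 8208 nt, stood at 7.48 to 9.41 FPKM, the highest level of a full-length coding transcript among the GLI genes.

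In the knockdown 8 of the 10 genes were tested, BOC and HHIP were called lower and GLI1 higher. Over all 10467 genes tested there, 3.26% were lower and 10.0% higher. The median log2 ratio was 0.06 over the 10 genes, of which 4 were below 0, 0.13 over the 8 members tested, and -0.04 over all genes tested. On the length-weighted scale none of 7 members tested was called, against 0.994% of all genes lower and 6.01% higher. With transcripts of 1000 nt or more none of 4 was, against 1.71% and 3.70%.

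With p37, 1 member, CDON, was lower and none higher, where 2.85% of all genes tested were lower and 2.86% higher. The p40 library had CDON and GLI1 lower and PTCH1 higher, with a background of 2.82% lower and 4.02% higher. For p42, BOC and CDON were lower, against 2.67% of all genes lower and 2.99% higher. BOC, CDON and GLI1 were lower with p45, against 3.11% lower and 5.13% higher. With all isoforms CDON and GLI1 were lower, against 3.0% lower and 3.31% higher. Between 7 and 8 members were tested in each of these comparisons, and since these ratios helped to choose the members, nothing is read from the counts. The medians over all 10 genes were -0.03, -0.11, 0.05, -0.32 and -0.05. Over the members tested they were -0.10, -0.11, -0.01, -0.49 and -0.06, and over all genes tested -0.01, -0.01, -0.01, -0.02 and -0.02.

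Length-weighted values left BOC as the only member tested and called with overexpression, in the p42 library, where 0.531% of all genes were lower, and in the p45 library, where 0.753% were; neither call held against the control siRNA library. No member was higher in these libraries, against 0.953% and 1.98% of all genes, and none was called with p37, p40 or all isoforms, where 0.673%, 0.638% and 0.634% of all genes were lower and 0.774%, 1.47% and 0.835% higher. With transcripts of 1000 nt or more none of the 4 members tested was called in any of the 5 comparisons, against 0.894%, 1.21%, 1.22%, 1.33% and 1.25% of all genes lower and 1.13%, 1.18%, 1.35%, 1.71% and 1.23% higher for p37, p40, p42, p45 and all isoforms.

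**Figure D1:**
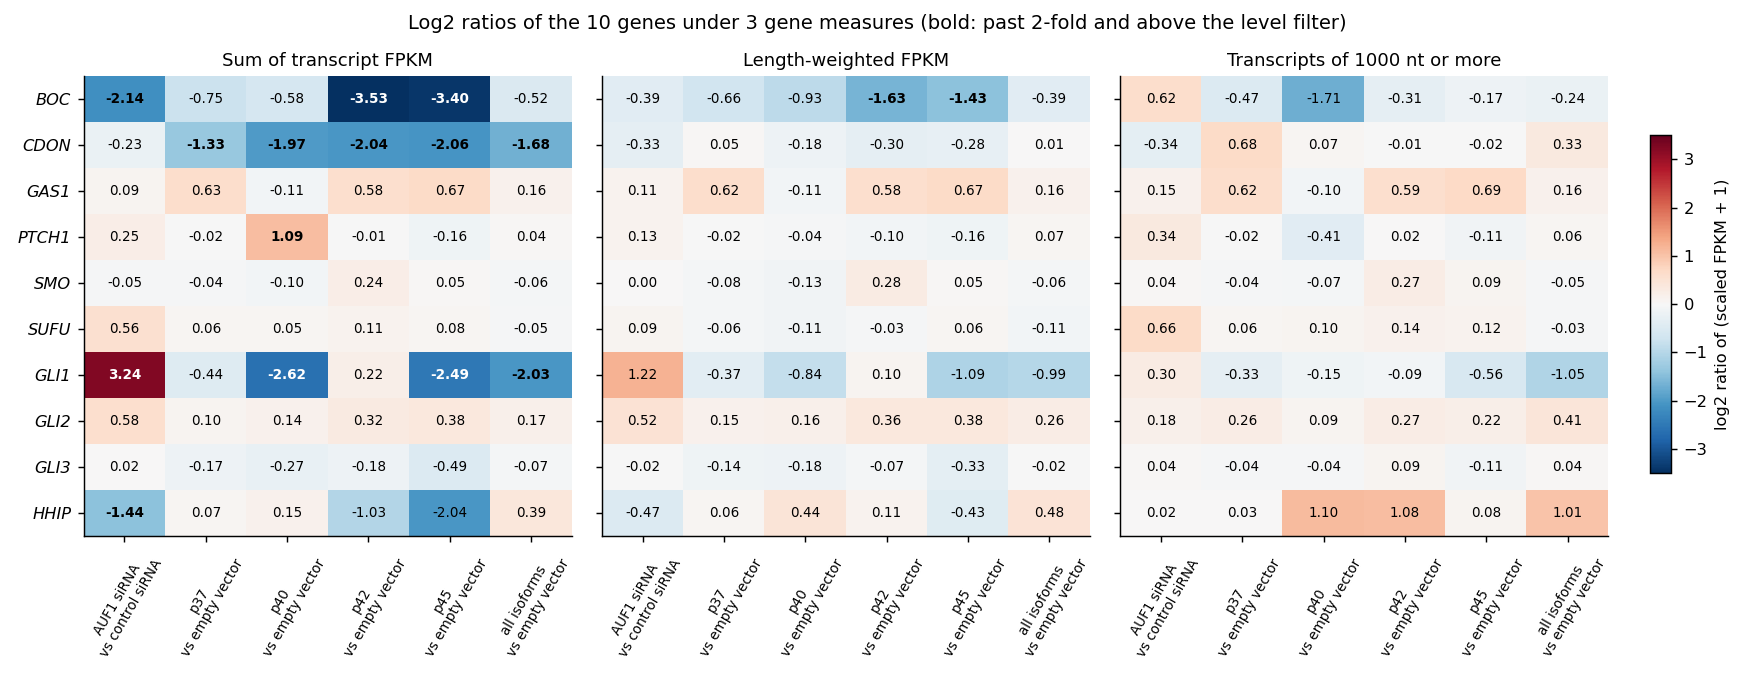
Log2 ratios of (scaled FPKM + 1) for the 10 genes (rows) in the 6 comparisons (columns) under 3 gene values; red is higher than the control, blue lower, and bold marks ratios past 2-fold that also met the level filter. CDON is bold in all 5 overexpression columns on the left, from -1.33 to -2.06, and in none of the other panels.

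Of the 10 genes, CDON alone had all 5 overexpression libraries below both the control siRNA and the empty vector library, a pattern found in 7.16% of 9952 genes tested. BOC had 2 of 5 libraries below both controls. GLI1 had none, because the control siRNA library was itself at 0.544 FPKM. GAS1, SMO and GLI1 did not meet the level filter over these libraries, so they were not among the genes tested. No member had all 5 above both controls, against 6.42% of all genes, but GLI2 did so with FPKM as deposited and with scaling by the 75th percentile. CDON did not keep this pattern on the length-weighted scale or with transcripts of 1000 nt or more, and no other member tested showed it there, against 8.11% and 7.34% of all genes. All 5 above both controls was found for no member tested there, against 6.22% and 5.85%. Long HHIP transcripts, under the level filter, stood at 0.434 to 2.01 FPKM with overexpression and 0.408 in both controls.

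The pair of control libraries, both without a change to AUF1, shows how far such sums differed without a change in AUF1. These are single libraries that also differ in what was transfected, an siRNA or a vector, and the part of that was not tested. Between them GLI1 was higher (2.88) and HHIP lower (-1.26) in the empty vector library, where 3.61% of 10000 genes were lower and 4.18% higher. The BOC ratio was 0.84 and the CDON ratio 0.00. On the length-weighted scale none of 7 members was called, against 1.56% lower and 0.995% higher. With the control siRNA library as the reference, GLI1 ratios turned to 0.26 in p40 cells, 0.39 in p45 cells and 0.85 in all-isoform cells. GLI1 was then higher with p42 (3.10), and its ratio with p37 was 2.43 at a mean under the level filter. CDON ratios ran from -1.32 to -2.06.

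The rest of the pathway was described through lists of known genes. Among 17 genes of ligand production and release, 7 were tested in each comparison and the ligands SHH, IHH and DHH stayed at or below 1.53 FPKM. GPC4, a cell surface proteoglycan, was lower in the knockdown (-1.02) and MOSMO, a membrane protein that restrains SMO, with p45 (-1.29). Against the other control library these ratios were 0.26 and -0.32. These were the calls of this list, each 1 of 7 genes tested (14.3%), against 3.26% and 3.11% of all genes lower. None of its genes was called on the length-weighted scale.

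Of 34 genes of ciliary transport and signal relay, 24 to 26 were tested, of which 1 to 3 were higher and 0 to 2 lower in each comparison. In the knockdown 4.0% were higher and 0% lower, against 10.0% and 3.26% of all genes. For p37, p40, p42, p45 and all isoforms 11.5%, 12.5%, 8.33%, 4.17% and 12.5% were higher, against 2.86%, 4.02%, 2.99%, 5.13% and 3.31%. Lower were 3.85%, 4.17%, 8.33%, 4.17% and 8.33%, against 2.85%, 2.82%, 2.67%, 3.11% and 3.0%. Of the 20 calls 11 were made in the same direction against the other control library, namely all those of B9D1, GPR161 and IFT122, and CEP164. B9D1, a protein of the ciliary transition zone, stood at 12.02 FPKM in control siRNA cells, 91.7 after AUF1 siRNA, 10.1 in empty vector cells, 17.6 in p37 cells, 67.6 in p40 cells, 68.7 in p42 cells, 20.5 in p45 cells and 74.8 in all-isoform cells. It was high in 4 libraries, with ratios of 2.83 in the knockdown and 2.62, 2.64 and 2.77 for p40, p42 and all isoforms, and stayed past 2-fold on the length-weighted scale (1.34, 1.42, 1.39 and 1.47). On that scale the last 3 were 0.89, 0.86 and 0.95 against control siRNA. GPR161, a ciliary receptor that restrains the pathway, was higher with p37 (1.78), p40 (1.65), p42 (2.10) and all isoforms (1.87), from 10.03 FPKM with the empty vector. IFT122, of the retrograde transport complex, was higher with p37 (1.95) and all isoforms (2.08), and DYNC2H1, its motor, with p37 (1.33) and p45 (1.05), where control siRNA cells held 35.9 FPKM against 15.0 with the empty vector, so that these ratios became 0.13 and -0.16. The arrestin ARRB1 was higher with p40 (1.08). CEP164, of the ciliary base, was lower with p42 (-1.22) and IFT88 in all-isoform cells (-1.30). IFT74 was lower in all 5 overexpression libraries (-1.31 to -2.07), but the control siRNA library held 6.90 FPKM against 23.3 in empty vector cells. Besides B9D1, the genes of this list called on the length-weighted scale were TULP3, a ciliary trafficking adaptor, in the knockdown (-1.03) and IFT74 in p37 cells (-1.13).

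The list of GLI processing and turnover held 28 genes, 22 to 24 of them tested, with medians from -0.22 to 0.04. KCTD6 (1.03) and ZIC2 (1.09) were higher in the knockdown, DYRK2, a kinase that acts on GLI2, was lower with p37 (-1.25), and the kinase subunits PRKAR1A (1.19) and CSNK1A1 (1.04) were higher with p42. The shares called were 8.33% in the knockdown, 4.35% with p37 and 8.70% with p42. Over all genes tested 10.0% were higher, 2.85% lower and 2.99% higher there. None of these genes passed on the length-weighted scale or against the other control library, where ZIC2 stood at 0.23 and DYRK2 at -0.48. Of 24 known Hedgehog target genes, 9 or 10 were tested, and FOXD1 in all-isoform cells (3.59 to 8.92 FPKM, 1.11) was the single call, below the 14.4 FPKM of the control siRNA library. It was 10% of the genes tested there, against 3.31% of all genes higher, and met the level filter through the high library alone. The target list had medians from -0.18 to 0.01, against -0.04 to -0.01 for all genes tested. CCND1, MYCN and BCL2 stood at 8.53 to 13.6, 7.84 to 12.5 and 6.07 to 6.72 FPKM. Among 18 receptors related to BOC and CDON, UNC5A, a netrin receptor, was higher in the knockdown (3.07 to 8.57 FPKM, 1.23, and 1.32 length-weighted). On the summed scale it met the level filter through the high library alone. It was 12.5% of the 8 receptors tested on either scale, against 10.0% and 6.01% of all genes higher. NEO1, the relative nearest to them in function as a netrin and repulsive guidance receptor, stood at 15.8 to 22.3 FPKM. Of 9 other GLI-like zinc finger genes, GLIS1 was higher in the knockdown (7.46 to 16.1 FPKM, 1.01, and 1.05 length-weighted), as was ZIC2, which is on both lists. That was 2 of 4 tested (50%), against 10.0% of all genes, and 1 of 3 length-weighted (33.3%), against 6.01%. These lists were drawn up with earlier results of the libraries known.

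**Figure D2:**
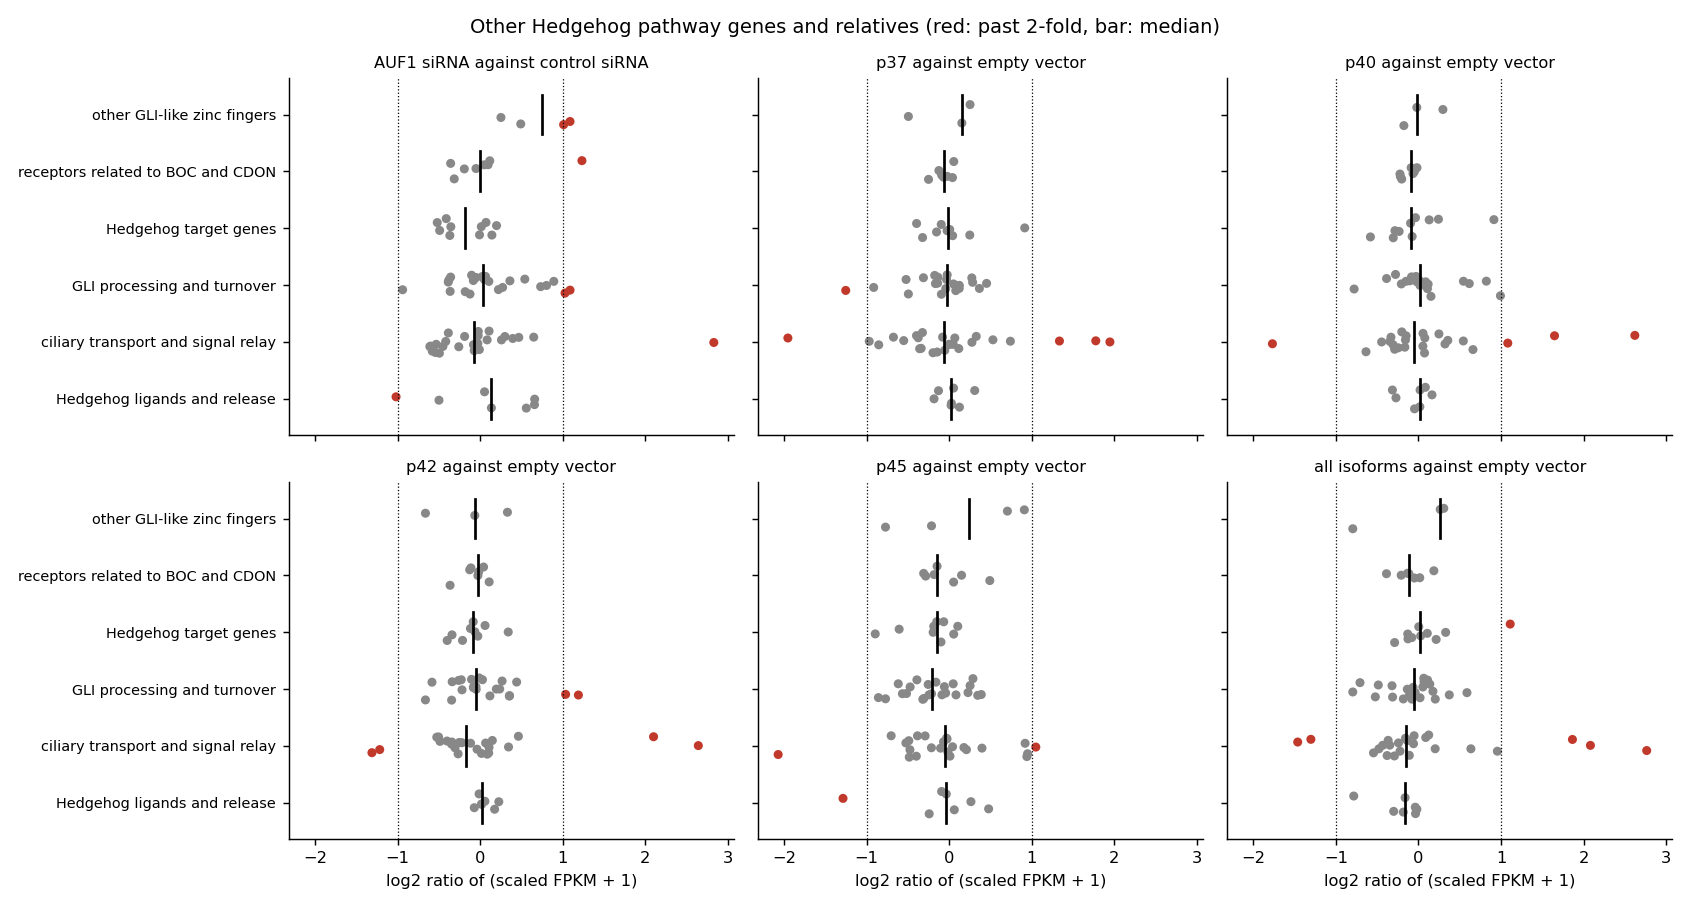
Log2 ratios of (scaled FPKM + 1) of the tested genes of 6 pathway lists in each comparison; each point is 1 gene, red points are past 2-fold (dotted lines) and the bar is the list's median. Medians lie between -0.22 and 0.26 except for the 4 zinc finger genes tested in the knockdown, at 0.75.

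Genes most alike to BOC, CDON and GLI1 were sought among 3199 protein-coding genes whose mean reached 5 FPKM and whose range was at least 2-fold, by Pearson's r of log2 values over the 8 libraries. RBL1, a retinoblastoma-family protein, was most alike to BOC (r = 0.95), followed by CAMTA2 (0.91) and ERFE (0.91). For CDON these were STAU2, a double-stranded RNA-binding protein (0.95), WDR81 (0.89) and MSMO1, an enzyme of cholesterol synthesis (0.88). STAU2 stood at 45.2, 39.2 and 59.3 FPKM in the control siRNA, AUF1 siRNA and empty vector libraries and at 18.3 to 23.8 with overexpression. For GLI1 they were AMOTL1 (0.95), ERICH1 (0.94) and TRNP1 (0.94). These are the highest of many correlations over 8 points that share libraries and scaling.

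AUF1 is known to bind AU-rich elements, so the letters ATTTA were counted in the 3′ untranslated region of the transcript with the longest coding sequence of each gene. They were present in 8 of the 10 members, against 60.4% of 19568 genes, but these regions were longer in the members (median 2679 nt) than over all genes (749 nt). Per 1000 nt, 6 members (BOC, CDON, GAS1, PTCH1, GLI3 and HHIP) were above the median of 1.55 over all genes with at least 100 nt of this region. HHIP held 29 in 7314 nt, CDON 13 in 5146 nt, PTCH1 9 in 3413 nt, GLI3 8 in 3380 nt, GAS1 4 in 1379 nt, BOC 3 in 589 nt, GLI2 3 in 1978 nt and SMO 1 in 1094 nt. SUFU and GLI1 held none, in 3380 nt and 201 nt. The longer letters TTATTTATT were found in CDON alone, against 6.90% of all genes, and are in capitals here.
CDON ENST00000392693, 3′ untranslated region around base 107: gagaaaatcaTTATTTATTtttttgtagt
The 459 nt CDON form and the 703 nt BOC form are annotated with an open 3′ end, and their listed sequence stops within the coding sequence. Whether these RNAs hold a 3′ untranslated region is therefore unknown. These matches describe letters and no binding was measured.

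GLI proteins bind the letters GACCACCCA, read TGGGTGGTC on the other strand. RefSeq promoter windows (GRCh38.p14, 250 bases before to 50 after a transcript start) were found for 8 of the 10 genes, 16 windows in all, and none was found for GLI1 and GLI3. One window, of PTCH1, held the letters on either strand, 172 bases before the start, against 83 of 35116 windows (0.236%) overall. It is shown because PTCH1 is a known GLI target.
PTCH1, GRCh38.p14 chr9:95509385-95509483, minus strand: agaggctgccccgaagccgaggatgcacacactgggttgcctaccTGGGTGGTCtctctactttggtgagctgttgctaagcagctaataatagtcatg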

How the data were processed

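Total RNA of transfected HEK293 cells was amplified from 100 ng with a NuGEN kit that leaves out ribosomal RNA, per the labels' protocols. Fragments of 250 to 300 bases were sequenced, with no statement on strand. The authors deposited 1 table per library with FPKM, its lower and upper bounds and a status for 167516 to 172153 transcripts, per the file headers. A deposited coverage column, a signal proportional to FPKM within a library, served for relative depth. The number of reads is unknown. Per the submitters' processing notes, the tools were Cufflinks 2.0.2, Cuffdiff and TopHat2 2.0.6 on hg19, with no annotation release named there.

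Transcripts were matched to GENCODE release 29. The 10 genes had 91 Ensembl transcripts, 81 of them matched, 2 under 300 nt and 32 above 0 in some library. Unmatched and assembled transcripts were placed with a gene where their cluster held that gene alone. Libraries were scaled by median of ratios over 13156 genes (factors 0.934 to 1.07). Genes with a failed status were left out, and LOWDATA transcripts were kept. Starts in the tables count from 0 and were raised by 1. Python 3.11.15, pandas 2.3.3 and numpy 2.4.6 were used, and the call rule was tested on simulated data. No tests were run, as each group held 1 library. The members, lists and thresholds were chosen with earlier results of these data known. All 10 members are named, with the called genes of each list (at most 4 per list and comparison) and the 3 genes most alike to BOC, CDON and GLI1. Transcripts of 1000 nt or more, and GENCODE-matched transcripts alone, were added as gene values after the data were seen, as were list calls and length-weighted ratios against the other control library. A gene of 1 list is not reported here and was left out of that list's counts.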

Additional observations from a re-analysis of the deposited data

How the results depend on the processing

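The counts of members called and the ratios of single members were recomputed under 12 other settings, and the ratios also on the length-weighted scale against the other control library, where GLI1 turned to 0.21 with p40 and 0.069 with all isoforms. Leaving out replicates was not possible with 1 library in each group. No paired analysis was possible because each group held 1 library and the groups share no second number. Without a length limit, with a pseudocount of 0.1, or with a lower level filter or none, every count of members stayed within 1.5 times. FPKM as deposited and the 75th percentile scaling each put 1 member, GLI2, with all 5 overexpression libraries above both controls, as did leaving out LOWDATA transcripts, which also left 1 member lower with all isoforms. A pseudocount of 5 left 1 member lower in the knockdown and 0 higher with p40.

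On the length-weighted scale 0 members were lower or higher in the knockdown, 0 were lower with p37, 0 lower and 0 higher with p40, 1 lower with p42, 1 lower with p45, 0 lower with all isoforms, and 0 had all 5 overexpression libraries below both controls. CDON turned to 0.048 with p37 and 0.0084 with all isoforms, and PTCH1 to -0.041 with p40. With transcripts of 1000 nt or more 0 members were lower or higher in the knockdown, 0 lower with p37, 0 lower and 0 higher with p40, 0 lower with p42, 0 lower with p45, 0 lower with all isoforms and 0 below both controls. There CDON turned to 0.68 with p37, 0.067 with p40 and 0.33 with all isoforms, PTCH1 to -0.41 with p40, BOC to 0.62 and HHIP to 0.017 in the knockdown. Both settings give short transcripts less weight or none, and 4 to 7 members met the level filter.

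Against the other control library 1 member was lower and 0 higher in the knockdown, 2 were lower with p37, 1 was higher with p42 and 1 lower with all isoforms. HHIP turned to -1.20 with p37 and -1.11 with p40, and was lower with p42 (-2.30) and p45 (-3.30). GLI1 turned to 0.26 with p40, 0.39 with p45 and 0.85 with all isoforms. The cause of these moves was not tested. BOC stayed lower with p42 (-2.68) and p45 (-2.56) on the summed scale. GENCODE-matched transcripts alone left 1 member lower and 0 higher with p40 and 1 lower with p45, with PTCH1 at -0.22 with p40, since its 919 nt transcript is not matched. A transcript listed at 0 may be a failed estimate. The level filter left GAS1 and SMO untested on the summed scale, and GLI1 in the count against both controls.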
